A study of Homo sapiens with 20 samples.

Results

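Kinesins are motor proteins that walk along microtubules, the hollow filaments of the cytoskeleton, or take them apart from their ends. The genes described here are the 38 protein-coding genes of the deposited count table whose symbol is KIF followed by a number and an optional letter, out of 39918 gene rows. Of these, 10 encode motors of mitosis and cytokinesis (KIF2C, KIF4A, KIF11, KIF14, KIF15, KIF18A, KIF20A, KIF20B, KIF22 and KIF23), and the other 28 include carriers of vesicles and organelles, motors of cilia and further mitotic motors such as KIF18B. Relatives with another kind of symbol (CENPE, KIFC1 to KIFC3) and the adaptor genes KIFAP3 and KIFBP are outside the rule. In all, 33 of the 38 passed the filter on low counts and were tested: all 10 mitotic kinesins and 23 of the other 28. The remaining 5, KIF25, KIF6, KIF7, KIF19 and KIF4B, held 14, 17, 44, 84 and 121 counts over all libraries together.

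Total RNA was sequenced from HCT-116, an established human colorectal cancer cell line, in 5 groups of 4 libraries. The asynchronous group received nothing. The G2 group spent 16 h in 2 mM thymidine, a block to DNA synthesis, followed by a release of 7 h. The 3 drug groups had the same block and release and then 3 h of 20 µM MG132, of 100 nM bortezomib, or of 20 µM MG132 together with 50 µg/ml α-amanitin. MG132 and bortezomib inhibit the proteasome, and α-amanitin inhibits RNA polymerase II. G2 cells were collected when the drugs were added, so a drug group also differs from them by 3 h in which cells could move on through the cycle. Nothing in the labels states that replicates were separate cultures, and a p-value here reflects the spread between libraries alone, which may be technical.

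During division, kinesins push spindle poles apart, move and align chromosomes, shorten microtubules at kinetochores and build the central spindle on which a cell cleaves. Many of their genes are transcribed in waves that peak in G2 and mitosis. Such late genes are often kept silent earlier in the cycle through a promoter element called the cell cycle genes homology region (CHR), read by the DREAM and B-MYB complexes, and are activated through CCAAT boxes bound by NF-Y. The proteasome removes several of these motors as protein when cells leave mitosis. The counts below are of RNA and say nothing of protein.

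The promoter stretches below are shown because the letters of these elements set many mitotic kinesins apart from most genes in the table of promoters, a property that no count entered. They come from RefSeq on GRCh38.p14, which held 32 of the 38 members (all 10 mitotic kinesins and 22 others), with a window from 250 bases before to 50 after each start. Capitals mark TTTGAA or TTCGAA (the CHR letters) and CCAAT, or their reverse complements TTCAAA and ATTGG, since both strands were searched. Positions count backwards from the base before the RefSeq start, which is -1. The stretches of KIF20A, KIF18A and KIF23 are 30 bases long and lie in the first exon of a longer GENCODE 29 model of the same gene, and that of KIF23 also lies in an exon of the antisense gene AC027237.3. The other 4 are in no exon of GENCODE 29.
KIF20A, chr5:138179032-138179061, plus strand: gcttccctatctgATTGGccgaacgaacgc
KIF18A, chr11:28108157-28108186, minus strand: gctgaggaaagtggcttgggTTTGAAtatt
KIF23, chr15:69414274-69414303, plus strand: gacgggcgctgATTGGcccgTTTGAAatgc
KIF11, chr10:92593030-92593129, plus strand: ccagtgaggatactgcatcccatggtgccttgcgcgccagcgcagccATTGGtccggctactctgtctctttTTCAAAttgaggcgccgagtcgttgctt
KIF14, chr1:200620752-200620851, minus strand: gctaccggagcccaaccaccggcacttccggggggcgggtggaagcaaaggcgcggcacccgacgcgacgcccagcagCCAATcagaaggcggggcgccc
KIF4A, chrX:70290004-70290089, plus strand: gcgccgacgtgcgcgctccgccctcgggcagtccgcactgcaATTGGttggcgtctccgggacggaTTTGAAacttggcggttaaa
KIF2C, chr1:44739737-44739817, plus strand: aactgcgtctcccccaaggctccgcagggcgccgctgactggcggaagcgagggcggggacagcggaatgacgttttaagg

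The CHR letters were in the window of 8 of the 10 mitotic kinesins (80%), of 4 of the 22 other kinesins (18.2%) and of 5336 of the 27305 genes in the promoter table (19.5%). CCAAT letters were in the windows of 8 of 10 (80%), 9 of 22 (40.9%) and 39.7% of all genes. Both were found in 7 of 10 mitotic kinesins (70%), in 4 of 22 other kinesins (18.2%) and in 9.02% of all genes. The 4 other kinesins with both were KIF4B, a retrogene copy of KIF4A, KIF18B, KIF24 and KIF5B. Genes with several annotated starts, 7 of the 32, had more than 1 window and so more letters to match. These are matches of letters, not sites shown to be used.

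KIF20A and KIF2C were the mitotic kinesins with no CHR match in the window. KIF20A has 2 CCAAT matches, at -94 and -67, and KIF2C has none. KIF15 has a CHR match at -35 and no CCAAT match. In KIF11, KIF18A, KIF23, KIF4A and the upstream window of KIF22 the CCAAT match stood 25, 35, 9, 24 and 39 bases before the CHR match. The other two mitotic kinesins with both matches had the CHR letters after the start, 23 bases behind the CCAAT match in KIF14 and 122 bases behind it in KIF20B. KIF3C, the member outside the mitotic list for which the groups differed most clearly below, has no match to either set of letters in its single window.

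Library totals ran from 26797395 to 39710457 counts. The cells had the epithelial transcripts EPCAM (142 to 408 CPM, counts scaled to library size), KRT8 (1470 to 2850 CPM) and KRT18 (858 to 1970 CPM), and the intestinal factor CDX2 at 4.82 to 13.9 CPM, while VIL1 was at 0 to 0.223 CPM. Markers of other cells were low but not even between the groups. The summed level of 10 fibroblast markers was 3.23 to 4.27 CPM in asynchronous and 6.32 to 10.7 CPM in G2 libraries, and COL1A1 was the 1 of them above 0.439 CPM in any library. The summed level of 8 leukocyte markers was 2.38 to 4.42 CPM in asynchronous and 4.15 to 6.98 CPM in G2 libraries, mostly CD68 and HLA-DRA, with PTPRC and CD3E at 0.148 CPM or less. Their part in the differences between these groups was not tested. Over the drug groups the fibroblast sum was 5.59 to 13 CPM and the leukocyte sum 3.89 to 8.5 CPM.

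In 4 libraries the levels of genes leaned with the GC content of their transcripts by more than 0.3 log2 units per 10 percentage points: asynchronous replicate 3 (0.535), G2 replicate 2 (0.393), MG132 replicate 2 (-0.42) and MG132 replicate 4 (0.786). In the other 16 libraries this slope lay between -0.284 and 0.212. Over the tested kinesins alone, some of these 16 leaned as much. The kinesin slope was -0.668 in asynchronous replicate 4 and 0.606 in MG132 with amanitin replicate 4, against -0.597 in MG132 replicate 2. Leaving out the 4 libraries therefore does not free the kinesins of such a lean. The transcripts of the tested kinesins range from 34.2% to 68.28% GC, with a median of 41.765% in the mitotic and 51.41% in the other ones. In asynchronous replicate 3, G2 replicate 2 and MG132 replicate 4, all 16 tested kinesins below the median GC of 47.65% stood under the median of their own group's unskewed libraries. Their median log2 ratio there was -1.716, -1.505 and -2.126, while the 17 kinesins at or above that GC had medians of 0.444, 0.099 and 0.486. MG132 replicate 2 leaned the other way, with 0.286 for the first set and -0.429 for the second. For the medians and for several named genes, values without these 4 libraries (an alternative added after seeing the data) are also given below.

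**Figure D1:**
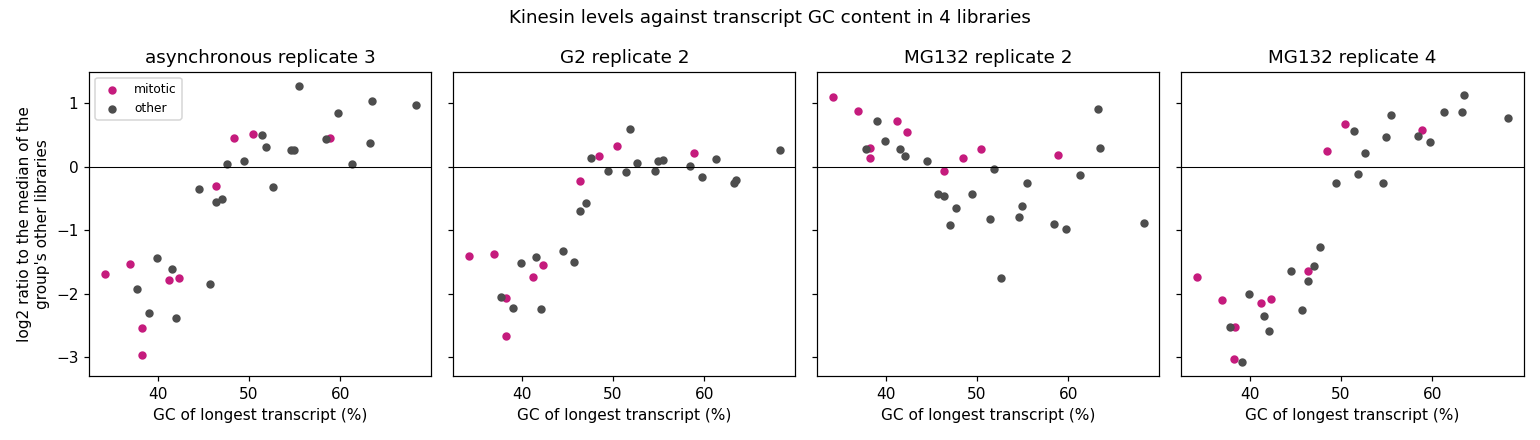
Each point is 1 of the 33 tested kinesins in 1 of the 4 GC-skewed libraries. The x axis is the GC content (%) of its longest transcript and the y axis the log2 ratio of its CPM to the median of the libraries of the same group that are not skewed. In 3 of the panels all 16 kinesins under 47.65% GC lie below 0, and in MG132 replicate 2 most of them (12 of 16) do not.

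Compared per kilobase of exon, which allows genes of different length to be set side by side, the most abundant kinesins were KIF5B (58.7 CPM per kb on average over the 20 libraries), KIF2C (58.4) and KIF20A (55.4). KIF5B is the ubiquitous heavy chain of conventional kinesin, the carrier of many cargoes towards the cell periphery. KIF2C is a depolymerase at centromeres that helps correct wrong attachments, and KIF20A brings the chromosomal passenger complex to the central spindle. These 3 means cannot be ordered, since KIF5B ran from 8.85 to 122.8, KIF2C from 32.8 to 95.5 and KIF20A from 28.8 to 77.0 CPM per kb. KIF22 (33.9), KIF23 (27.5), KIF1C (24.8) and KIF4A (23.8) followed, also with overlapping ranges. The least abundant mitotic kinesin was KIF15 at 5.81 CPM per kb, and the least abundant tested member was KIF1A at 0.0108.

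**Figure D2:**
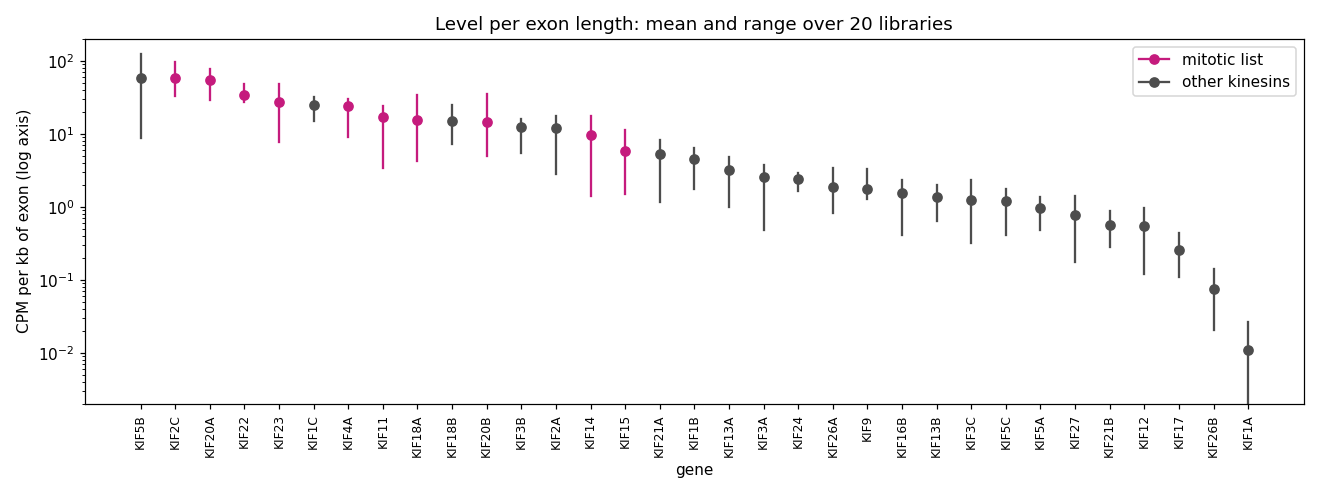
Mean level of the 33 tested kinesins over 20 libraries, in CPM per kilobase of exon on a log axis, with lines from the lowest to the highest library. The line of KIF1A runs off the foot of the axis because 1 library held 0 counts. Mitotic kinesins take 8 of the 11 highest means, the others being KIF5B, KIF1C and KIF18B, and the lines are long for low-GC genes such as KIF5B, KIF14 and KIF11.

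The first comparison asked which kinesins differ after a thymidine block and release into G2. KIF20A, KIF3C and KIF1A were called higher in G2 cells, and no kinesin was called lower. Called means an adjusted p under 0.05 in edgeR's quasi-likelihood test over all 18959 tested genes. The count is 1 of 10 mitotic and 2 of 23 other tested kinesins, where 2.09% of all tested genes were called in either direction and 1.95% higher. In a bulk library a larger share of cells in G2 and more RNA per cell cannot be told apart. The G2 group also had 16 h in 2 mM thymidine, which the asynchronous group did not. Thymidine exposure and position in the cycle cannot be told apart either.

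KIF20A was at 114.1, 119.2, 163.3 and 160.6 CPM in the 4 asynchronous libraries and at 245.3, 304.8, 270.9 and 284.2 CPM in the G2 libraries. Every G2 library was above every asynchronous one. The means were 139 ± 26.3 and 276 ± 24.95 CPM (SD, n = 4), a log2 fold change of 0.99 (SE 0.181, 95% interval 0.61 to 1.37, edgeR adjusted p = 0.00726). KIF20A lies on chromosome 5 (138178719 to 138187715, hg38), where its exons share 132 bases with BRD8 and 68 with CDC23, both on the opposite strand. Whether the counting used strand is not given in the sources used here. At 48.42% GC it is near the middle of the kinesins, and the difference was as large without the 4 GC-skewed libraries (log2 fold change 1.02, adjusted p = 0.0067).

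KIF3C encodes a subunit of the kinesin-2 motors, which pairs with KIF3A and is best known from neurons. Its asynchronous libraries held 2.01, 3.73, 5.06 and 2.02 CPM, and its G2 libraries 7.42, 9.56, 9.94 and 8.87 CPM. The groups did not overlap, and the log2 fold change was 1.48 (SE 0.28, 95% interval 0.89 to 2.06, edgeR adjusted p = 0.00849). These levels rest on 41 to 142 counts in asynchronous and 202 to 368 counts in G2 libraries. The gene is on chromosome 2 (25926596 to 25982749) and shares no exon bases with another gene of the annotation. The other kinesin-2 motor genes were not called. Their log2 fold changes were 0.02 (SE 0.5) for KIF3A, -0.22 (SE 0.287) for KIF3B and 0.70 (SE 0.312) for KIF17. For KIF17 all G2 libraries lay above the asynchronous ones.

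KIF1A, a carrier of synaptic vesicle precursors, was almost silent. It had 1, 1, 1 and 0 counts in asynchronous and 3, 12, 9 and 14 counts in G2 libraries, or 3 against 38 counts in all. The ratio of the pooled levels was 10.3 with an exact 95% interval of 3.28 to 52.3, which covers counting error only. Its edgeR adjusted p was 0.0444, and the gene passed the filter through the groups in which it was higher. The call was lost without any 1 of 7 of the 8 libraries compared (adjusted p between 0.0716 and 0.147; it held without G2 replicate 1) and without the 4 GC-skewed libraries (adjusted p = 0.0839).

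Samples carry a code letter whose meaning is not documented and which may mark a batch. Within letter L, KIF20A was at 114.1 CPM in the asynchronous and 245.3 CPM in the G2 library, and within letter O at 163.3 against 270.9 to 304.8 CPM. KIF3C was at 2.01 against 7.42 CPM within L and at 5.06 against 8.87 to 9.94 CPM within O. With the letter as a block, KIF20A remained called (log2 fold change 0.99, edgeR adjusted p = 0.0359), and KIF3C was not (1.32, adjusted p = 0.0728). With only the 8 libraries of the comparison in the fit, neither was called: edgeR's adjusted p was 0.137 for KIF20A and 0.124 for KIF3C, and 8 genes of the whole table were. The log2 fold changes in that fit were 0.99 and 1.47. Scaled to mitochondrial mRNAs they were 0.99 (adjusted p = 0.188) and 1.39 (adjusted p = 0.0998).

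Among the mitotic kinesins, 7 of 10 had a positive log2 fold change between G2 and asynchronous cells, with a median of 0.39. The median was 0.02 in the other 23 tested kinesins, of which 14 were positive, and -0.04 over all tested genes, of which 45.1% were positive. Without the 4 GC-skewed libraries the mitotic and other medians were 0.38 and 0.20. With the code letter as a block they were 0.78 (9 of 10 positive) and 0.33 (17 of 23). For scale, each library's median deviation over the mitotic kinesins had a pooled SD within groups of 0.639 log2 units. That spread of single libraries is larger than every mitotic median of the main fit, here and in the comparisons below. At an unadjusted p under 0.05, 2 mitotic and 4 other kinesins were higher and none lower, where 9.2% of all genes were higher at that level. Libraries of the 2 groups did not overlap for 2 mitotic kinesins and 3 others, all higher in G2, as was so for 5.75% of all genes.

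KIF2C came closest to a call after the 3 above. Its asynchronous libraries held 119.7, 136.6, 194.8 and 163.0 CPM and its G2 libraries 219.8, 276.1, 222.4 and 217.7 CPM. Again the ranges were apart, with a log2 fold change of 0.61 (SE 0.208, 95% interval 0.17 to 1.04), but the edgeR adjusted p was 0.158, and 0.0502 without the 4 GC-skewed libraries. Within letter L the values were 119.7 and 219.8 CPM, and within O they were 194.8 and 217.7 to 276.1 CPM.

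The motors that work at the central spindle and cleavage furrow besides KIF20A were spread widely. KIF23, the motor of centralspindlin, was at 106.1, 169.4, 50.4 and 214.4 CPM in asynchronous and at 191.3, 84.3, 244.9 and 273.2 CPM in G2 libraries. The lowest library of each group was its GC-skewed one, and the ranges overlapped (log2 fold change 0.56, 95% interval -0.38 to 1.49). KIF14, which acts with citron kinase in cytokinesis, ran from 10.3 to 98.9 CPM in asynchronous and from 14.7 to 128.2 CPM in G2 libraries (0.33, interval -1.05 to 1.71). For KIF20B, another cytokinesis motor, the interval was -0.92 to 1.14. Intervals this wide include changes of 2-fold and more, so these data do not show that the genes stayed level. Without the 4 GC-skewed libraries the log2 fold changes of KIF23, KIF14 and KIF20B were 0.54 (SE 0.227), 0.33 (SE 0.43) and 0.11 (SE 0.348), with smaller errors and still no call.

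The motors that separate poles and carry chromosomes had log2 fold changes on both sides of 0. KIF11, which slides spindle poles apart, averaged 78.1 ± 46.7 CPM in asynchronous and 76.5 ± 41.6 CPM in G2 cells (SD, n = 4; log2 fold change -0.03, 95% interval -1.15 to 1.09). KIF15, which can keep the spindle bipolar in its place, averaged 33.9 ± 16.9 and 27.8 ± 13.5 CPM (-0.29, interval -1.28 to 0.70). The chromokinesin KIF22 had a narrower interval, with means of 163 ± 35.7 and 155 ± 16.0 CPM (-0.07, interval -0.45 to 0.32). KIF4A, a chromokinesin that also limits the length of the central spindle, was at 54.1, 86.5, 70.1 and 95.4 CPM in asynchronous and at 80.0, 101, 118.9 and 118.2 CPM in G2 libraries, with overlapping ranges (0.45, interval -0.12 to 1.02). KIF18A, which shortens and steadies kinetochore microtubules, had a log2 fold change of 0.55 (interval -0.45 to 1.56).

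The most abundant kinesins outside the mitotic list, KIF5B, the vesicle transporter KIF1C, KIF3B and KIF18B, were not called either. KIF5B was at 235, 426, 86.0 and 456 CPM in asynchronous and at 207, 75.5, 394 and 351 CPM in G2 libraries, with its lowest value in the GC-skewed library of each group (log2 fold change -0.23, 95% interval -1.47 to 1.02). KIF1C averaged 220 ± 47.2 and 189 ± 34.6 CPM (SD, n = 4; -0.22, interval -0.69 to 0.24), and KIF3B 83.2 ± 24.8 and 71.5 ± 22.8 CPM. KIF18B averaged 68.8 ± 21.6 and 91.4 ± 21.7 CPM (0.41, adjusted p = 0.58). The log2 fold changes of the 23 other kinesins ran from -0.83 for KIF27 to 3.14 for KIF1A. KIF12 and KIF17 had intervals above 0 without a call, at 1.05 (SE 0.384, edgeR adjusted p = 0.193) and 0.70 (SE 0.312, edgeR adjusted p = 0.334).

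**Figure D3:**
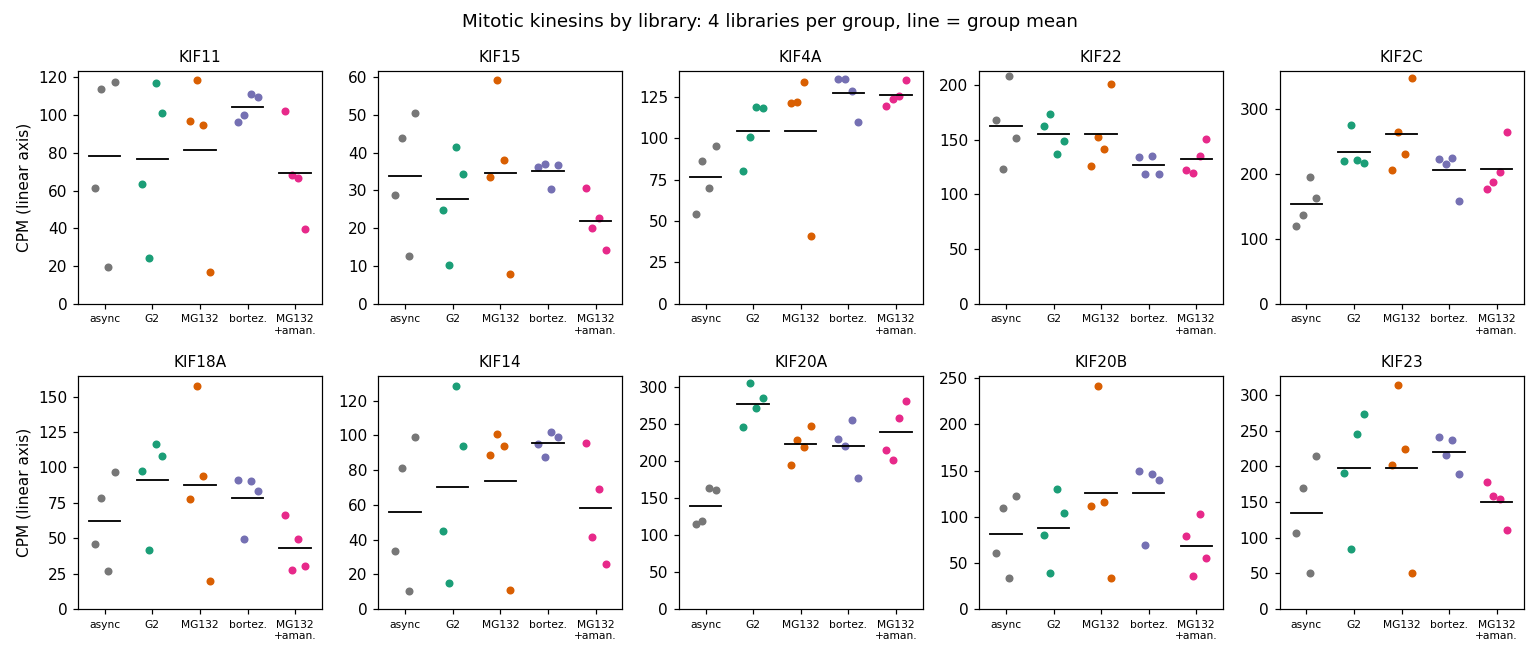
CPM of the 10 mitotic kinesins in each of the 20 libraries (points; 4 per group) with the group mean as a line, on linear axes from 0. KIF20A and KIF2C are the panels in which all G2 points lie above all asynchronous points, and in KIF14 the lowest MG132 point, at 11.1 CPM, stands apart from the other 3 at 88.8 to 101 CPM.

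The summed level of the 10 mitotic kinesins was 979 ± 233 CPM in asynchronous and 1322 ± 220 CPM in G2 libraries (SD, n = 4). The sums overlapped, at 790.6 to 1271 and 1070 to 1527 CPM. As a share of all counts on kinesin genes the mitotic sum was 47.1% to 52.5% in asynchronous and 56% to 63.8% in G2 libraries, ranges that did not overlap. The highest G2 shares, 63.8% and 60.8%, were in replicates 1 and 2. The other kinesins summed to 685.5 and 689.2 CPM there, against 1202 and 1128 CPM in replicates 3 and 4, so the share also moved with the other kinesins. In the drug groups the share was 51.9% to 61.1% with MG132, 48.4% to 54% with bortezomib and 48.8% to 56.8% with MG132 and amanitin. The sum is weighted towards its most abundant members, KIF2C and KIF20A among them, so it restates those genes in part.

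In the genes that work with mitotic kinesins, a list of 21 that were all tested, 1 was called in the same comparison. AURKA, the kinase of spindle poles, rose from 119 ± 15 to 213 ± 19.4 CPM (SD, n = 4; log2 fold change 0.84, SE 0.186, edgeR adjusted p = 0.0204). That call was lost without any 1 of 5 of the 8 libraries (asynchronous replicates 1 and 2, G2 replicates 1, 2 and 4; adjusted p between 0.0507 and 0.0653) and with the letter as a block (0.0729). It was also lost when scaled to mitochondrial mRNAs (0.288) and with only the groups compared (0.151), while the log2 fold change lay between 0.79 and 0.88 in the fits that lost the call. The median log2 fold change of the list was 0.36. None of the 16 kinesin relatives and cargo adaptors (median 0.39) and none of the 21 tested dynein and dynactin genes (median 0.05) was called. At an unadjusted p under 0.05, 6 of 21, 3 of 16 and 0 of 21 genes of these lists were higher and none lower, beside 9.2% of all tested genes higher at that level and 2.09% called.

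**Figure D4:**
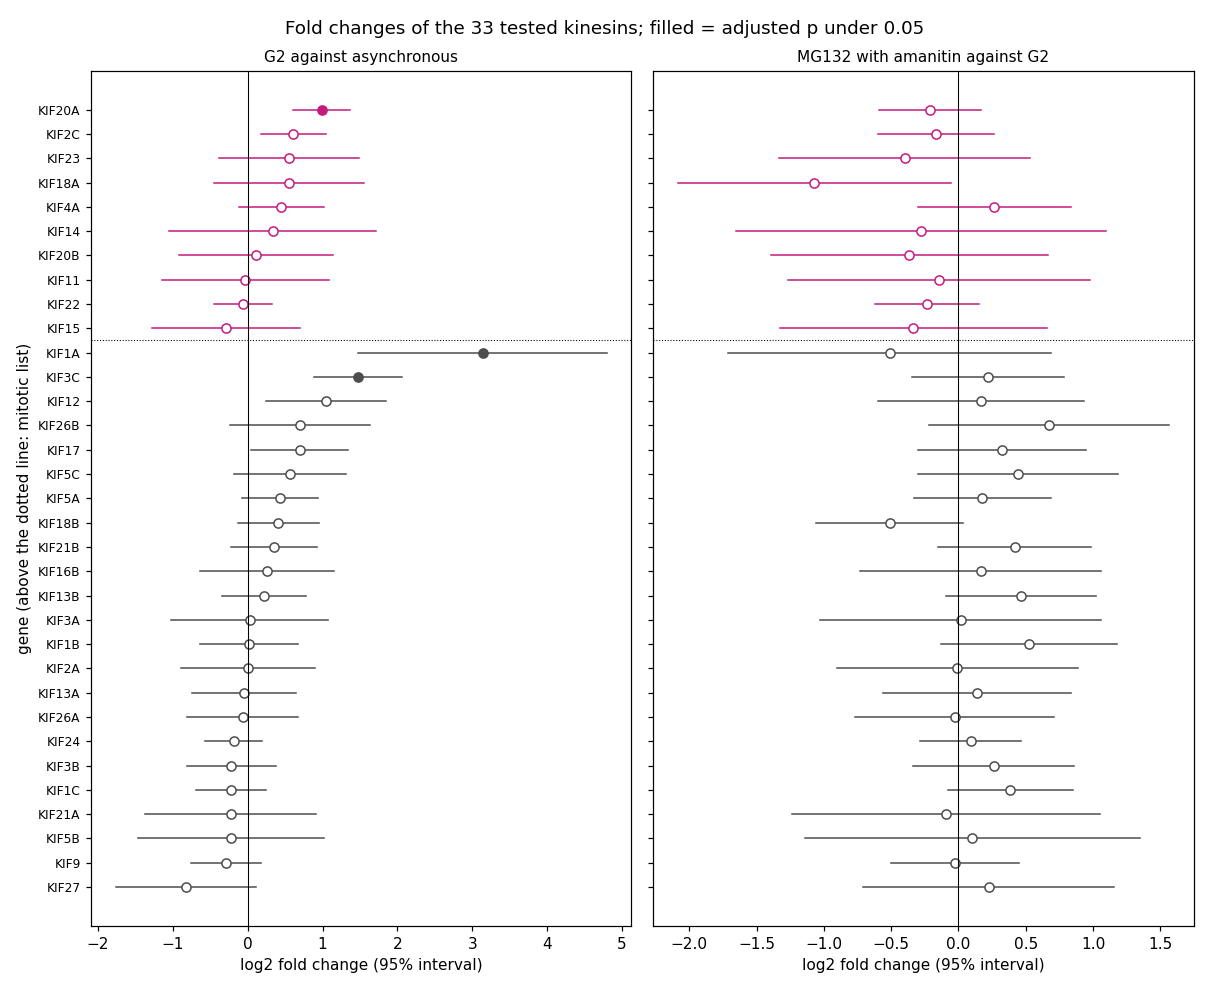
Log2 fold changes of the 33 tested kinesins with 95% intervals, for G2 against asynchronous cells (left) and MG132 with amanitin against G2 cells (right). Filled points were called, and mitotic kinesins are above the dotted line. The left panel has 3 filled points (KIF20A, KIF1A, KIF3C) and the right panel has none, with KIF18A the single interval there that excludes 0.

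Proteasome inhibition was compared with G2 cells, with the 3 h of further time in each such comparison. With MG132, 0 of 33 tested kinesins were called by edgeR or by DESeq2. Over all tested genes edgeR called 2.08% (395 genes) and DESeq2 647 genes. At an unadjusted p under 0.05 there was 1, KIF18B, and the share over all genes was 11.8%. The mitotic kinesins had a median log2 fold change of 0.03, with 5 positive and 5 negative, against -0.01 in the other kinesins and -0.03 in all tested genes. Scaling moved that balance: 8 of 10 were positive with RLE size factors and 2 of 10 when libraries were scaled to mitochondrial mRNAs, under which the median of all genes fell by 0.26. Without the GC-skewed libraries the mitotic and other medians were -0.02 and 0.10.

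KIF18B, a motor that regulates astral microtubules in mitosis, was at 62.0, 95.3, 94.1 and 114.2 CPM in G2 and at 63.3, 33.4, 61.9 and 87.7 CPM in MG132 libraries. The groups overlapped, and the log2 fold change was -0.57 (SE 0.262, edgeR adjusted p = 0.392). KIF18B lay close together in the other drug groups, at 62.9 ± 1.42 CPM with bortezomib and 64.2 ± 5.35 CPM with MG132 and amanitin. KIF20A was at 194.9, 227.7, 218.7 and 246.9 CPM with MG132, below the G2 mean of 276 CPM in each library but overlapping the lowest G2 library (-0.32, 95% interval -0.69 to 0.06). KIF3C was at 8.77, 6.96, 7.82 and 14.7 CPM, around its G2 mean of 8.95 CPM (0.10, interval -0.47 to 0.66).

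With bortezomib, again 0 of 33 kinesins were called by either tool. Over all tested genes edgeR called 1.15% (218 genes) and DESeq2 621 genes. At an unadjusted p under 0.05 there was 1, KIF17, against 14.5% of all genes. The median log2 fold change was 0.22 in the mitotic kinesins (6 of 10 positive), 0.12 in the others (14 of 23) and -0.02 in all tested genes. That mitotic median was not stable in sign. It was 0.02 when scaled to mitochondrial mRNAs, 0.03 with the GC and length offset and -0.02 with the code letter as a block. Without the 4 GC-skewed libraries it was -0.05, and that of the other kinesins was 0.06. The letter block leaves little to compare here. Bortezomib replicates 2 and 4 are the only libraries of their letters, and replicate 1 alone shares a letter with G2 libraries. KIF20A was at 229.9, 219.8, 254.4 and 176.6 CPM, a log2 fold change of -0.33 (interval -0.70 to 0.05).

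Bortezomib libraries lay outside the range of the G2 libraries for 4 kinesins: higher for KIF5B and KIF1B, lower for KIF22 and KIF17. KIF5B was at 434 to 506.5 CPM with bortezomib and 75.5 to 394 CPM in G2 cells, where the lowest value is that of the GC-skewed library (log2 fold change 0.90, SE 0.601, edgeR adjusted p = 0.495; 0.56, SE 0.329, without the skewed libraries). KIF1B was at 90.3 to 113 against 42.6 to 87.8 CPM. KIF22 was at 118 to 135 against 137 to 174 CPM (-0.30, SE 0.186, adjusted p = 0.474). KIF17, a homodimeric kinesin-2 motor of cilia and dendrites, was at 0.481 to 1.09 against 1.14 to 1.38 CPM (-0.67, SE 0.31, edgeR adjusted p = 0.328), on 13 to 52 counts a library. Over all genes the ranges were apart upwards for 7.66% and downwards for 7.55%.

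MG132 and bortezomib were matched in time and are different inhibitors of 1 target. Between them 0 of 33 kinesins were called by edgeR or DESeq2 and 0 had an unadjusted p under 0.05 in edgeR. Over all tested genes edgeR called 0.0369% (7 genes) and DESeq2 19 genes, and 4.05% had such a p in edgeR. The mitotic median was -0.01, that of the other kinesins -0.22 (6 of 23 positive) and that of all genes -0.01. Without the GC-skewed libraries, of which 2 are MG132 libraries, the mitotic and other medians were -0.02 and -0.05. For KIF20A the difference was 0.01 on the log2 scale with a 95% interval of -0.36 to 0.39, and for KIF22 it was 0.29 (-0.10 to 0.68). For KIF14 the interval was -1.76 to 1.00, which leaves large differences in either direction unseen.

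MG132 with α-amanitin was compared with G2 cells, and with MG132 alone at the same time point, to follow transcripts when RNA polymerase II is inhibited. Against G2 cells 0 of 33 kinesins were called by edgeR or DESeq2. Over all tested genes edgeR called 3.35% (636 genes) and DESeq2 1005 genes. In edgeR 1 kinesin, KIF18A, had an unadjusted p under 0.05 against 14.4% of all genes. Of the mitotic kinesins 9 of 10 had a negative log2 fold change (median -0.26), while 17 of the 23 other kinesins had a positive one (median 0.17) and the median of all genes was 0.00. Scaled to mitochondrial mRNAs, under which the median of all genes fell by 0.41, 10 of 10 mitotic and 18 of 23 other kinesins were negative, with medians of -0.66 and -0.22. The order of the 2 medians was thus kept and the sign of the second was not. Without the 4 GC-skewed libraries the medians were -0.55 and 0.06, and with the code letter as a block -0.78 and 0.29. With the GC and length offset they were -0.27 and 0.08, close to those of the main fit.

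Against MG132 alone the calls were also 0 of 33 by both tools. Over all tested genes edgeR called 2.19% (415 genes) and DESeq2 718 genes. In edgeR 0 kinesins had an unadjusted p under 0.05 (12.5% of all genes). The medians were -0.34 for mitotic and 0.20 for other kinesins, with 2 of 10 and 18 of 23 positive, and 0.02 for all genes. They were -0.48 and 0.12 without the GC-skewed libraries, -0.53 and 0.34 with the letter block, and -0.36 and 0.10 with the GC and length offset. The 2 comparisons share the libraries that received amanitin, so their signs are not separate evidence. KIF3B, a kinesin-2 subunit, was the 1 tested kinesin with separate ranges here, at 84.7 to 87.2 CPM with amanitin and 33.7 to 82.3 CPM with MG132 (0.47, SE 0.287, edgeR adjusted p = 0.554), as was so upwards for 4.82% of all genes.

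KIF18A had the lowest log2 fold change of the 33 kinesins in both. Its amanitin libraries held 66.1, 27.5, 49.2 and 30.4 CPM, its G2 libraries 97.6, 41.6, 117 and 108 CPM, its MG132 libraries 77.7, 158, 93.9 and 19.9 CPM and its bortezomib libraries 91.2, 49.1, 90.6 and 83.3 CPM. The G2 library that falls among the amanitin values, replicate 2, and the MG132 library that lies below them, replicate 4, are both GC-skewed, and the KIF18A transcript has 37% GC. The highest MG132 library, replicate 2, is skewed the other way. Amanitin replicates 2 and 4, with the lowest KIF18A values of that group, also leaned towards high GC over the tested kinesins. Their kinesin slopes were 0.282 and 0.606 log2 units per 10 percentage points, against -0.061 and -0.013 in replicates 1 and 3. Against G2 cells the log2 fold change was -1.07 (SE 0.485, 95% interval -2.08 to -0.06, edgeR adjusted p = 0.309), and against MG132 it was -1.01 (SE 0.485, adjusted p = 0.4). Its asynchronous libraries, at 45.6, 78.6, 27.1 and 97.1 CPM, spanned both.

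KIF18A passed the test against G2 cells under 3 alternatives added after seeing the data. It was -1.10 after an offset for GC and length (edgeR adjusted p = 0.00902), -1.10 with that offset and the replicate number as a block (0.0199), and -1.34 without the 4 GC-skewed libraries (0.0151). Within code letter L the values were 97.6 CPM in G2 and 27.5 CPM with amanitin, and within letter O they were 41.6 to 117 and 30.4 CPM. KIF18A shares 61 exon bases with METTL15 on the opposite strand.

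Other cytokinesis and pole motors had smaller differences from G2 cells, with wide intervals. KIF23 was at 178.1, 158.4, 155.0 and 110.3 CPM with amanitin (log2 fold change -0.40, 95% interval -1.33 to 0.53; -0.68, SE 0.21, adjusted p = 0.0822 without the GC-skewed libraries), and KIF20A at 214.8, 200.5, 258.3 and 280.9 CPM (-0.21, interval -0.59 to 0.16). KIF4A was the 1 mitotic kinesin with a positive value: its amanitin libraries held 119.4, 123.6, 125.4 and 134.9 CPM, all above the G2 libraries (0.27, interval -0.30 to 0.83, edgeR adjusted p = 0.743). That sign depended on the scaling. Scaled to mitochondrial mRNAs, 0 of 10 mitotic kinesins, KIF4A included, and 5 of 23 others were positive. The 8 mitotic kinesins besides KIF4A and KIF18A ranged from -0.40 to -0.145. Without the GC-skewed libraries KIF14 and KIF15 were both at -0.64, KIF20B was at -0.635 and KIF11 at -0.47, none of them called. KIF1C, a transporter of vesicles, KIF13B and KIF1B also had ranges above those of G2 cells without a call. KIF1C was at 246 ± 9.90 CPM with amanitin and 189 ± 34.6 CPM in G2 cells (SD, n = 4; 0.38, SE 0.222, adjusted p = 0.477), and such upward gaps occurred in 7.76% of all genes.

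KIF4B, a retrogene copy of KIF4A on chromosome 5, was below the filter but had an uneven pattern. It held 21, 32, 9 and 7 counts in the amanitin libraries and 0 to 12 counts in the other 16. Reads of KIF4B and KIF4A can be hard to tell apart, and how reads with several alignments were counted is not given in the sources used here. KIF4A itself had 3846 to 4881 counts in these libraries. With no filter, KIF4B had an adjusted p of 0.0252 in edgeR's test over the 5 groups and of 0.102 for MG132 with amanitin against MG132. The first of these was 0.0703 without the 4 GC-skewed libraries. On leaving out each library it ran from 0.0178 to 0.0577 in the 17 fits in which KIF4B could be tested, with 7 of them not called. KIF4B fell below the filter without amanitin replicate 1 or 2, its highest libraries, and without G2 replicate 4. The range therefore does not show how the result depends on those libraries. KIF4B was singled out after its values were seen.

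**Figure D5:**
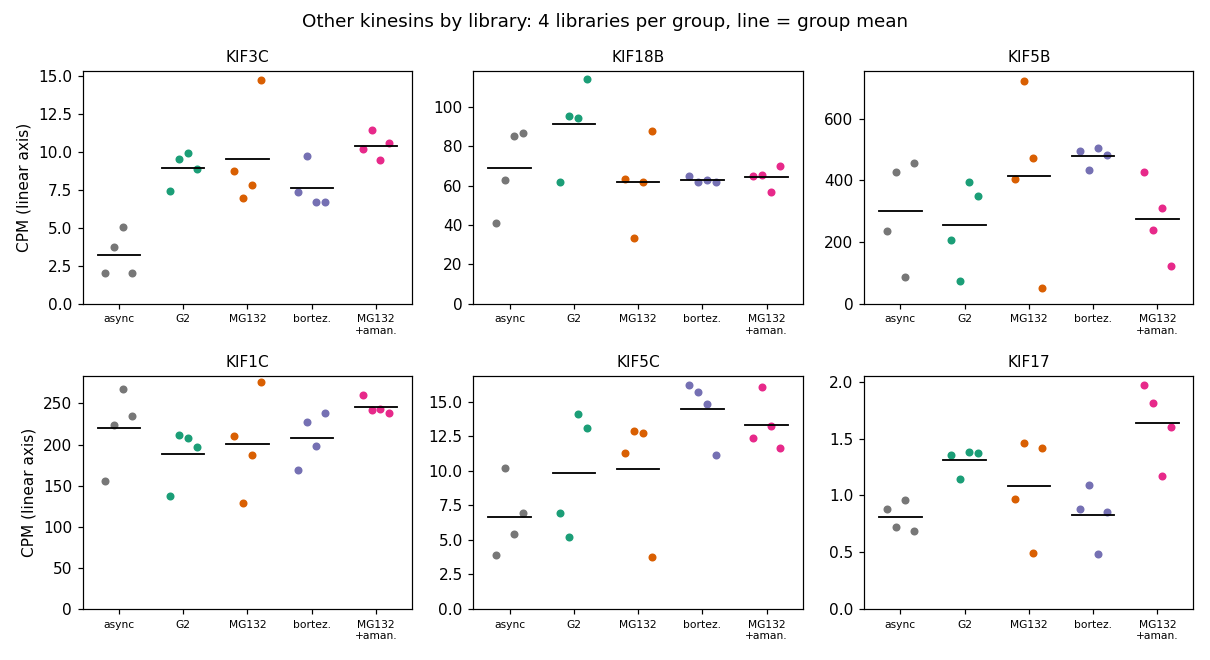
CPM of 6 kinesins outside the mitotic list in each of the 20 libraries (points; 4 per group) with the group mean as a line, on linear axes from 0. KIF3C is the panel in which all asynchronous points, at 2.01 to 5.06 CPM, lie below all 16 others, and KIF18B is at 61.7 to 64.9 CPM in the 4 bortezomib libraries.

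Among the mitotic partners, PSRC1, which encodes a microtubule-binding protein of the spindle, was lower than in G2 cells in all 3 drug groups. It fell from 59.8 ± 8.08 CPM in G2 cells to 28.8 ± 10.7 with MG132, 28.3 ± 3.14 with bortezomib and 29.9 ± 6.39 CPM with MG132 and amanitin (SD, n = 4). The log2 fold changes were -1.06, -1.08 and -1.001 with edgeR adjusted p of 0.0183, 0.0249 and 0.0173, and the comparisons share the G2 libraries. Each call was lost without some single libraries (adjusted p up to 0.0798, 0.102 and 0.0758) and with the letter as a block (0.0695, 0.53 and 0.183). For bortezomib that block rests on few libraries, since replicate 1 alone shares a letter with G2 libraries. The MG132 call was also lost with only the groups compared (0.353), the MG132 and bortezomib calls when scaled to mitochondrial mRNAs (0.0629 and 0.0769), and the amanitin call with total library size (0.0528). In the fits that lost a call the log2 fold change lay between -1.30 and -0.81. In the main fit no other partner was called in any of the 5 comparisons of drug groups. The same held for the relatives, adaptors and tested dynein and dynactin genes. AURKA came near for MG132 with amanitin against G2, at -0.66 (edgeR adjusted p = 0.0544). DESeq2 called it there (adjusted p = 0.0139). So did edgeR with the GC and length offset (0.048), with that offset and the replicate block (0.0488) and without amanitin replicate 4 (0.0328). Unadjusted p-values under 0.05 numbered at most 4 in a list and comparison. These were 4 of 21 partners, all lower, with bortezomib and with MG132 and amanitin against G2 cells. With bortezomib there were also 4 of 21 dynein and dynactin genes, 3 higher and 1 lower. The shares over all tested genes were 14.5% and 14.4% in these 2 comparisons. KIF2C itself was at 263 ± 61.8, 206 ± 31.2 and 208 ± 39.2 CPM in the 3 drug groups against 234 ± 28.1 CPM in G2 cells.

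Over all 5 groups at once, edgeR's F test called KIF3C (adjusted p = 0.00363) and KIF20A (adjusted p = 0.0109), 2 of 33 kinesins where 12% of all tested genes were called. The 3 that followed were KIF1A (0.0794), KIF17 (0.0853) and KIF2C (0.106). For KIF3C the asynchronous group, which alone had no thymidine, was the low one. Its mean was 3.21 CPM, against 8.95, 9.57, 7.64 and 10.4 CPM in G2, MG132, bortezomib and amanitin cells. The same group had the lowest mean for KIF20A, 139 CPM against 220 to 276 CPM in the other 4.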

How the data were processed

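The deposited file holds raw counts of 39918 genes and 1174 repeat subfamilies, as the authors made them, in 20 columns named for the 20 samples (0 other columns). RNA was extracted with TRIzol, treated with DNase and made into TruSeq stranded total RNA libraries, per the labels' protocols. Tools named in the submitters’ processing notes are FastQC, cutadapt 1.18, STAR and hg38 without roles. Which tool counted, with which annotation and strand setting, and what became of multi-mapped reads is not given in the sources used here.

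The members and gene lists were chosen with earlier results of these data known. A leukocyte marker of the planned list is not reported here and was left out of its sum. Genes and repeats shared 1 fit in edgeR 4.0.16 under R 4.3.3 (filterByExpr, TMM, robust glmQLFit and glmQLFTest, 1 mean per group over all 20 libraries, 15 residual degrees of freedom). Adjusted p-values are Benjamini-Hochberg over 18959 genes. CPM uses TMM-adjusted library sizes, and exon lengths, GC content (known for 98.6% of tested genes) and positions come from GENCODE 29. The closest replicates, G2 3 and 4, differed by a chi-square of 9.12 per degree of freedom, so none was treated as a duplicate. On simulated counts of G2 against asynchronous cells over 18545 genes, 33 of 100 genes changed 2-fold and 92 of 100 changed 4-fold were called, with 6 false calls. The changed genes had a mean of 1 CPM or more, so these shares do not cover KIF1A (0.18 CPM). Counts were drawn independently, without a GC lean shared by the genes of a library.

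Named with full values were the mitotic kinesins, other members called in a comparison, the 4 most abundant others, and up to 3 called partners a list; KIF17, KIF1B, KIF13B, KIF4B and KIF2C's within-letter values were added after their values were seen. Alternatives were scaling by RLE, by total library size or by 13 mitochondrial mRNAs, no filter, a stricter one (4 or more samples with a CPM of 1 or more), DESeq2 1.42.0, only the groups compared, blocks for replicate number or code letter, and leaving out each library. The GC and length offset (prior count 2, loess span 0.5), alone or with the replicate block, and the omission of the 4 GC-skewed libraries were added after seeing the data.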

Additional observations from a re-analysis of the deposited data

Results flagged for a closer look

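In groups of 4 libraries, a library was singled out when its gap to the nearest of the others, as a share of the whole range, exceeded Dixon's critical value at the 95% level. Of 165 sets (33 tested kinesins in 5 groups) 11 held such a library, and chance alone gives about 1 in 20.

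In MG132 replicate 4, a GC-skewed library, KIF4A was at 40.8 CPM against 121 to 134 in the other MG132 libraries, KIF14 at 11.1 against 88.8 to 101 CPM, and KIF1A at 0.338 against 0.119 to 0.149 CPM. In G2 replicate 2, also skewed, KIF2C was at 276 against 218 to 222 CPM and KIF17 at 1.14 against 1.36 to 1.38 CPM.

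The others were in libraries without that skew. KIF3B was at 46.1 CPM in asynchronous replicate 1, against 93.2 to 97.5 CPM. KIF13B was at 7.72 CPM in G2 replicate 1, against 15.4 to 16.5 CPM. In bortezomib replicate 2, KIF20B was at 69.5 against 139 to 149 CPM and KIF5A at 7.16 against 4.97 to 5.22 CPM. KIF15 was at 30.3 CPM in bortezomib replicate 3, against 36.3 to 37 CPM, and KIF2C at 159 CPM in bortezomib replicate 4, against 216 to 225 CPM.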

How the results depend on the processing

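The direction of KIF20A, KIF3C and KIF1A between G2 and asynchronous cells was the same under every alternative that tested them. Their count of 3 became 0 when scaled to mitochondrial mRNAs (adjusted p of 0.188, 0.0998 and 0.0725), 0 with only the groups compared and 1 with the code letter as a block (KIF20A), and 2 to 3 on leaving out each library. In the test over 5 groups the count of 2 became 0 with mitochondrial mRNA scaling, 5 with DESeq2 (KIF1A, KIF17 and KIF2C added), 5 with the GC and length offset with or without the replicate block (KIF12, KIF18A and KIF2C added), 5 without the 4 GC-skewed libraries (KIF21B, KIF17 and KIF18A added), and 2 to 4 on leaving out each library, where KIF4A (without MG132 replicate 4), KIF4B and KIF1A (without bortezomib replicate 4) joined. The edgeR test over 5 groups also called KIF17 with total library size (adjusted p = 0.0417) and KIF4B with no filter (0.0252). For MG132 with amanitin against G2 the count of 0 became 1, KIF18A, with the offset, with the offset and block, and without the skewed libraries. The other 4 counts were 0 under every alternative. With the code letter block the median of the mitotic kinesins went from 0.39 to 0.78 for G2 against asynchronous. For MG132 with amanitin against G2 it went from -0.26 to -0.78. For bortezomib it went from 0.22 to -0.05 without the skewed libraries. Each of these shifts was smaller than the pooled SD of that median between libraries of a group, 0.639 log2 units. Apart from fewer libraries or another scaling, the cause of these shifts was not tested.

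Over 40 same-numbered pairs the correlation of deviations ran from -0.555 to 0.559 (12 over 0.1), and 2 of 20 libraries were closest to their own number. These deviations may carry the GC lean of the 4 skewed libraries. Whether libraries of the same replicate number share a culture or batch was not tested. With the replicate block, KIF20A (0.0145) and KIF3C (0.0192) were called and KIF1A (0.0777) was not, and the 397 genes of the whole table called in that comparison became 238.

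That 397 ranged from 8 (only the groups compared) over 110 (code letter), 149 (mitochondrial mRNA scaling), 249 (strict filter), 677 (total library size), 714 (DESeq2) and 874 (skewed libraries left out) to 995 (offset), and from 143 to 457 on leaving out each library. Under the same settings the calls over 5 groups, 2281 in all, ranged from 970 to 4224. The drug comparisons with G2 had 395, 218 and 636 calls, which ranged from 86 to 770, 30 to 621 and 224 to 1026. MG132 with amanitin against MG132 had 415 (189 to 830 without leaving out a library) and MG132 against bortezomib 7 (0 to 19). At this depth genes of under 100 counts, such as KIF1A and KIF17, limit what can be seen.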
